A study of Rattus norvegicus with 4 samples.

Results

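Reelin and the proteins that receive it were followed through the rat nucleus accumbens as 4 genes: Reln, which encodes the secreted ligand, Vldlr and Lrp8, which encode its receptors, and Dab1, which encodes the adaptor inside the receiving cell. Members were taken by symbol from the feature lists of the count matrices, and each symbol matched 1 of 30560 listed genes. Single nuclei were sequenced from adult Sprague-Dawley rats aged 90 to 120 days that received cocaine (20 mg/kg, intraperitoneally) or saline once a day for 7 days, with tissue taken 1 hour after the last injection. Each of the 4 libraries held sorted nuclei from 2 mm punches centred on the accumbens core of 4 pooled rats, 16 rats in all. The libraries were females given saline, females given cocaine, males given saline and males given cocaine. Individual rats are not resolved, so a p-value bears on pooled libraries. In the edgeR fits the spread between libraries was estimated partly or wholly from all genes together. There were 2 libraries per treatment, 1 of each sex.

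Reelin is a large secreted glycoprotein best known for positioning neurons in the developing brain. It binds very-low-density lipoprotein receptor (Vldlr) and apolipoprotein E receptor 2 (Lrp8), which makes Src family kinases phosphorylate the adaptor Dab1 and passes the signal to PI3K, Crk and the cytoskeleton. In the adult brain it is made mainly by GABAergic neurons and bears on synaptic strength. The accumbens is built mostly of medium spiny neurons (MSN), which carry either the dopamine receptor Drd1 (D1) or Drd2 (D2). Nr4a3 encodes an orphan nuclear receptor that is switched on rapidly by neuronal activity, and it is used here to mark recently active nuclei.

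The letters just upstream of Reln are shown because the level of Reln tracked Nr4a3 in the results that follow. The stretch is the 122 bases before the annotated start of the gene in the RefSeq promoter table (build GRCr8, plus strand, chr4:13628318-13628439), printed 5′ to 3′, with capitals marking the matches found.
Reln upstream: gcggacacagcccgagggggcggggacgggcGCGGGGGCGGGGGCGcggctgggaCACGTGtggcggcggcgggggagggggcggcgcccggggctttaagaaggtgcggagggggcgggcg
Of these 122 bases 83.6% were G or C. The median over the 33469 promoter windows of the table was 51.7%, but those windows are longer, at 300 bases, so the values are not on the same length. The first capital run holds 2 overlapping matches to the Egr motif, searched as GCGTGGGCG or GCGGGGGCG on both strands, and 3.2% of all promoters of 300 bases held at least 1 match. The motif is itself almost all G and C, and that share was not matched for GC content. Of the 2 Dab1 windows 1 also held an Egr match, and the Vldlr window held none. The second run is CACGTG, an E-box, which 6.42% of promoters held and the Dab1 and Vldlr windows did not. The motif of the Nr4a receptors, AAAGGTCA on either strand, was not among the 300 bases of the Reln window and was found in 1.43% of all promoters. It occurred once in 1 of 2 Dab1 windows and not in the Vldlr window. The cAMP response element TGACGTCA (1.83% of promoters) and the AP-1 motif TGANTCA (7.33%) matched none of these windows. Promoters of 3 of the 4 members were in the table.

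The deposited matrices held 26228 barcodes and 31484217 to 40737786 unique molecular identifiers (UMIs, counted molecules) per library. After filters and removal of 1381 likely doublets 24839 nuclei were kept, at a median of 4207 to 4831 UMIs per nucleus in each library. Of the barcodes, 81 occurred in more than 1 library. Nuclei were clustered without the 4 members and named from marker lists, and clusters that failed any of the naming rules are called by a leading gene. The class names were read against their markers. In D1-MSN-like nuclei Drd1 was at 105.5 CPM (the gene's UMIs scaled to a fixed total of the class) and Drd2 at 5.1 CPM. The D2-MSN-like nuclei had 2.8 CPM of Drd1 and 792.8 CPM of Drd2. The libraries differed in makeup: glutamatergic-like nuclei numbered 30, 253, 49 and 118, and nuclei of the Klhl1-led cluster 803, 452, 382 and 296. These values, and every series of 4 in the text, follow 1 order: saline then cocaine of the females, then saline then cocaine of the males.

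Reln was carried by D1-MSN-like nuclei above all. These nuclei made up 19.7% of the nuclei and held 76.59%, 72.73%, 73.97% and 83.24% of the Reln UMIs of their libraries. Their Reln level was 273, 277, 146 and 296 CPM, a mean of 248.2 ± 68.7 CPM (SD, n = 4 libraries). The saline male library stood lowest and the other three lay close together. With every nucleus thinned to 1000 UMIs, 10.55% to 15.62% of D1-MSN-like nuclei had a Reln UMI, against 0.08% to 0.23% of oligodendrocyte-like nuclei, a glial class taken here as the background. Without thinning the shares were 30.78% to 45.25% at median depths of 6750.5 to 9932 UMIs, and 0.15% to 0.45% at 1512.5 to 2000 UMIs.

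Second in order were Sst interneuron-like nuclei, the somatostatin class, with Reln at 119, 197, 91.6 and 187 CPM (mean 148.7). The unnamed Klhl1-led cluster followed with 58.6, 125, 125 and 137 CPM (mean 111.3), and Pvalb/Pthlh interneuron-like nuclei with 22.3, 303, 0 and 70.0 CPM (mean 98.8). These 4 leading groups cannot be put in a firm order, because the range over libraries of each overlapped that of the next. D2-MSN-like nuclei had 24.1, 23.4, 17.9 and 27.6 CPM, below the lowest D1-MSN-like library. Grm8 MSN-like nuclei, a further spiny neuron class, were lower still at a mean of 6.7 CPM, and oligodendrocyte-like nuclei had 2.0 CPM. No Reln UMI was seen in the Mecom-led cluster (0 of 73 nuclei, which allows up to 4.11%) or the Mrc1-led cluster (0 of 21, up to 14.29%).

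**Figure D1:**
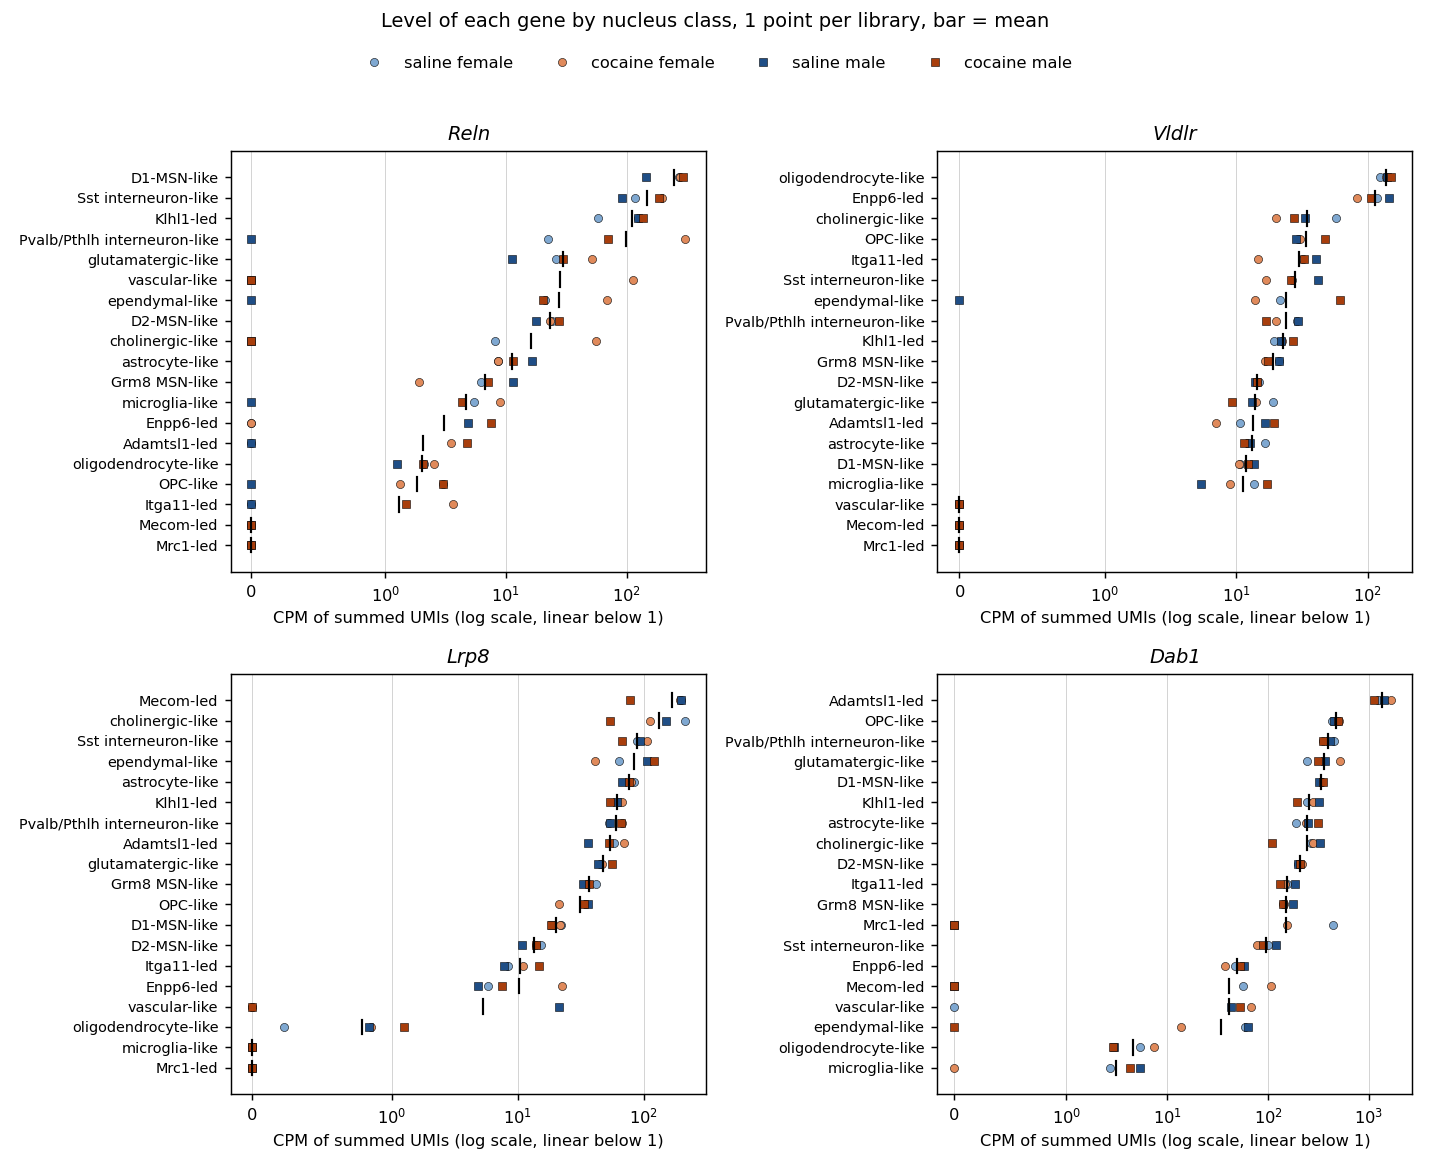
Level of Reln, Vldlr, Lrp8 and Dab1 in each class or cluster of nuclei, as CPM of summed UMIs on a log axis that is linear below 1, with 1 point per library and a bar at the mean of 4 libraries. Reln is highest in D1-MSN-like nuclei (mean 248.2 CPM), Vldlr in oligodendrocyte-like nuclei (138.3 CPM), Lrp8 in the Mecom-led cluster (167.5 CPM) and Dab1 in the Adamtsl1-led cluster (1350 CPM).

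Within D1-MSN-like nuclei Reln was uneven. Of the 2 clusters that make up the class, cluster 2 had 359, 446, 236 and 424 CPM and cluster 6, with Htr4 and Isl1 among its leading genes, had 55.9, 52.7, 50.3 and 92.0 CPM. Every library of cluster 2 was above every library of cluster 6. Clustering the class again gave 7 sub-clusters, here numbered 0 to 6. Neither the members nor a list of 45 activity-induced genes was used to form them, but genes that travel with these were, so the levels are a description.

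Sub-clusters 0 and 3 were rich in the ligand, at means of 326.1 and 389.6 CPM, while sub-clusters 1 and 2 had 53.5 and 37.2 CPM. Sub-cluster 4 was nearly empty of Reln, with 0, 17.5, 4.0 and 3.3 CPM. Sub-cluster 5 was small, with 26, 57, 24 and 54 nuclei, and had the highest Reln of any class or sub-cluster: 1085, 2883, 765 and 2949 CPM. Both cocaine libraries were above both saline libraries there. Its leading genes were Nr4a3, Pcsk1 (a prohormone convertase), Nr4a1, Fosb and Fosl2, with Reln itself sixth. These few nuclei held 10.03%, 34.2%, 7.56% and 33.31% of all Reln UMIs in their libraries.

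**Figure D2:**
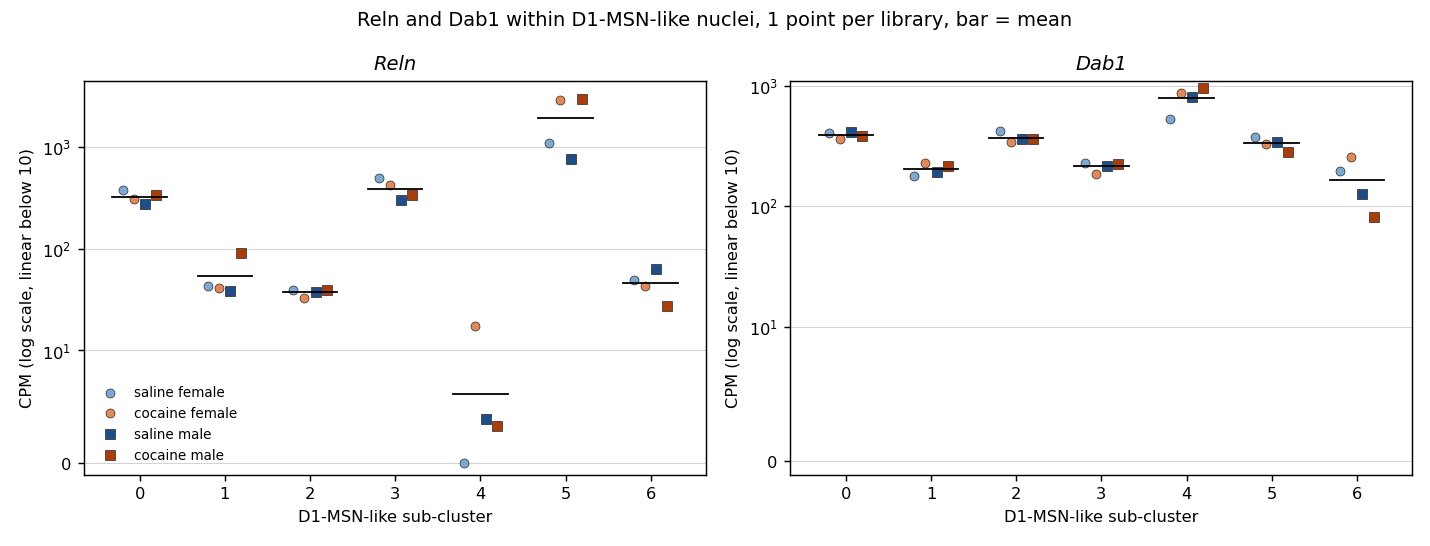
Reln (left) and Dab1 (right) in the 7 sub-clusters of D1-MSN-like nuclei, as CPM on a log axis that is linear below 10, with 1 point per library and a bar at the mean. Reln peaks in sub-cluster 5, where the cocaine libraries reach 2883 and 2949 CPM, and is near 0 in sub-cluster 4, where Dab1 is highest (mean 796.7 CPM).

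The receptor Vldlr was at its highest level in oligodendrocyte-like nuclei. In oligodendrocyte-like nuclei it stood at 125, 137, 141 and 150 CPM, 138.3 ± 10.4 CPM (SD, n = 4), and this class held 39.37% to 49.85% of the Vldlr UMIs of each library with 26.7% of the nuclei. The Enpp6-led cluster, named for a gene of newly formed oligodendrocytes, had 117, 82.99, 145 and 105 CPM, overlapping the oligodendrocyte-like range. Oligodendrocyte precursor-like nuclei had 29.3, 30.4, 28.6 and 47.1 CPM, below every library of both. After thinning, 11.47% to 14.17% of oligodendrocyte-like nuclei had a Vldlr UMI.

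Every neuronal class was lower in Vldlr than the oligodendrocyte-like class. Cholinergic-like nuclei had the highest neuronal mean, 34.3 CPM, from 32 UMIs in 79 nuclei. Sst interneuron-like nuclei had a mean of 27.8, Pvalb/Pthlh interneuron-like 23.8, the Klhl1-led cluster 22.6, Grm8 MSN-like 19.0, D2-MSN-like 14.4 and D1-MSN-like 11.7 CPM. The last 2 of these had 13.8 to 14.9 and 10.5 to 13.6 CPM, so that D2-MSN-like nuclei were higher without overlap, a small gap. No Vldlr UMI was found in vascular-like nuclei (0 of 96, which allows up to 3.12%).

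Lrp8, the other receptor, was nearly missing from the class that led in Vldlr. Oligodendrocyte-like nuclei had 9 Lrp8 UMIs in 6656 nuclei (mean 0.79 CPM), and microglia-like nuclei had none (0 of 772, which allows a share of up to 0.39%). Among the larger classes astrocyte-like nuclei led with 84.0, 78.8, 68.0 and 76.3 CPM, above the Klhl1-led cluster (63.5, 67.1, 61.7 and 53.9 CPM) in every library. Sst interneuron-like nuclei, with a mean of 89.2 CPM, and Pvalb/Pthlh interneuron-like nuclei, with 60.6 CPM, carried more than the named spiny neuron classes. The means of those were 37.0 CPM in Grm8 MSN-like nuclei, 20.3 CPM in the D1 class and 13.5 CPM in the D2 class. The ranges of these last 3 classes did not overlap. The unnamed Adamtsl1-led cluster, which scored highest on a spiny neuron list, had 58.6, 69.6, 36.3 and 52.85 CPM, overlapping the Pvalb/Pthlh interneuron-like range.

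The highest Lrp8 means came from small groups and are loosely fixed. The Mecom-led cluster, which has the vascular transporter genes Slco1a4 and Abcb1b among its leading genes, had 198, 197, 197 and 78.4 CPM from 7, 11, 4 and 1 UMIs. Cholinergic-like nuclei, the acetylcholine neurons, had 212, 113, 152 and 54.4 CPM from 52, 34, 46 and 4 UMIs. Both ranges overlapped that of Sst interneuron-like nuclei (67.3 to 106 CPM).

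Dab1, the adaptor, was the most widely spread of the 4 genes. Its highest level was in the Adamtsl1-led cluster, 1225, 1640, 1410 and 1124 CPM, clear of every other class. Oligodendrocyte precursor-like nuclei followed with 431, 500.5, 451 and 497 CPM, then Pvalb/Pthlh interneuron-like nuclei with 452, 351, 413 and 347 CPM. These ranges overlapped, so the order is not firm. Glutamatergic-like nuclei varied widely, at 245, 516, 365 and 315 CPM. D1-MSN-like nuclei had 331, 346, 317 and 347 CPM and D2-MSN-like nuclei 196, 219, 200.2 and 208 CPM, again without overlap. Astrocyte-like nuclei had a mean of 245.3 CPM.

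In oligodendrocyte-like nuclei, where Vldlr was highest, Dab1 was at 5.35, 7.38, 2.95 and 2.90 CPM, or 63 UMIs in 6656 nuclei. After thinning, 0.3% to 0.6% of these nuclei had a Dab1 UMI, against 24.43% to 26.71% of D1-MSN-like nuclei. Nuclei with both Dab1 and a receptor UMI after thinning were 0.74% to 1.11% of D1-MSN-like, 1.57% to 3.05% of astrocyte-like and 1.69% to 3.83% of oligodendrocyte precursor-like nuclei. At 1000 UMIs per nucleus most transcripts at these levels are missed, so the shares are low bounds of the overlap.

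Within D1-MSN-like nuclei the sub-cluster with the lowest Reln had the highest Dab1, but the other sub-clusters gave no such order. Sub-cluster 4, led by Adamtsl1, had Dab1 at 535, 878, 809 and 966 CPM, above every other sub-cluster in all 4 libraries. The saline female value rests on 13 nuclei. Sub-clusters 0 and 2, which differ widely in Reln, overlapped in Dab1, with means of 390.1 and 370.7 CPM. So did sub-cluster 1, low in Reln, at 179, 228, 194 and 217 CPM of Dab1, and Reln-rich sub-cluster 3, at 230, 186, 215 and 227 CPM.

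For each member the 3 genes with the most similar profile over the 13 named classes were found by Pearson correlation of mean log2(CPM + 1), given as a description of classes that share libraries. For Reln these were Prok2 (r = 0.82), Htr2a (0.81) and Pitpnm3 (0.81), all highest in Sst interneuron-like nuclei. Those of Vldlr were Pias4 (0.96), Rcbtb1 (0.96) and Usp20 (0.95), all highest in oligodendrocyte-like nuclei. For Lrp8 they were Adgra1 (0.97), Snph (0.96) and Caskin1 (0.95), and for Dab1 Cntn4 (0.97), Rgs7 (0.96) and Kcnma1 (0.95). The profile of Reln was thus less closely matched than those of the other members.

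The design set cocaine against saline within each class, with 2 libraries a side and sex as a covariate in edgeR's quasi-likelihood test on summed counts. A gene was called when its Benjamini-Hochberg adjusted p over all genes of the class was under 0.05. The members passed the filter on low counts in 41 pairs of a member and a class, and 1 pair was called: Reln in Pvalb/Pthlh interneuron-like nuclei. At an unadjusted p under 0.05 there were 9 pairs. Fold changes were above 0 in 6 of 8 classes for Reln, 3 of 11 for Vldlr, 4 of 10 for Lrp8 and 7 of 12 for Dab1.

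The share of all tested genes that were called gives the background for these counts. It was 0.0377% in D1-MSN-like nuclei, 0.758% in D2-MSN-like nuclei, and 0.235% in Grm8 MSN-like, 2.37% in Pvalb/Pthlh interneuron-like, 0.393% in oligodendrocyte-like, 0.0236% in oligodendrocyte precursor-like and 1.38% in astrocyte-like nuclei. In the unnamed clusters it was 0.0165% (Klhl1-led), 0.454% (Itga11-led) and 0.755% (Adamtsl1-led). In microglia-like nuclei, where no member passed the filter, it was 0.145%. In glutamatergic-like, Sst interneuron-like and Enpp6-led nuclei edgeR and DESeq2 called 0 genes (0%), with 221, 436 and 211 genes at an unadjusted edgeR p under 0.05.

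In D1-MSN-like nuclei Nr4a3, at 25.2, 95.8, 14.5 and 68.4 CPM, rose by 2.05 ± 0.10 (log2, SE) with cocaine (edgeR adjusted p = 0.000164). Reln, at the levels given above, was 0.49 ± 0.18 higher on the log2 scale and did not pass (edgeR adjusted p = 0.566). The females barely differed, at 273 CPM with saline and 277 with cocaine, while the males had 146 and 296 CPM. Both cocaine libraries were thus above both saline libraries, in the females by very little. Without the saline female library the difference was 0.95 and was called (edgeR adjusted p = 1.23e-06), and without the saline male library it was 0.04.

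The other members were level in this class. Dab1 differed by 0.07 ± 0.07, Vldlr by -0.11 ± 0.15 and Lrp8 by -0.06 ± 0.12 (log2 ± SE). The lowest edgeR adjusted p of these 3 was 0.809. In D2-MSN-like nuclei Reln differed by 0.23 ± 0.14 (edgeR adjusted p = 0.619). Among nuclei gated singly by D2 markers it was 0.52 ± 0.13 higher and was called (edgeR adjusted p = 0.0027). That gate took 926, 1109, 1048 and 1166 nuclei, of which 668, 897, 830 and 962 were in the D2-MSN-like class.

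Reln was higher in both cocaine libraries than in both saline libraries in Sst interneuron-like nuclei, where the difference was 0.83 ± 0.21 (log2, edgeR adjusted p = 0.622). In the Klhl1-led cluster it was 0.60 ± 0.20 (edgeR adjusted p = 0.921), in glutamatergic-like nuclei 1.06 ± 0.35 (adjusted p = 1.0) and in Grm8 MSN-like nuclei -1.04 ± 0.38 (adjusted p = 0.416). None of these passed. The Grm8 MSN-like value rests on 20, 6, 36 and 19 Reln UMIs, and 1 saline male nucleus held 31 of the 36. The Klhl1-led value passed without the saline male library (1.11, edgeR adjusted p = 1.14e-06) and was 0.03 without the saline female library.

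**Figure D3:**
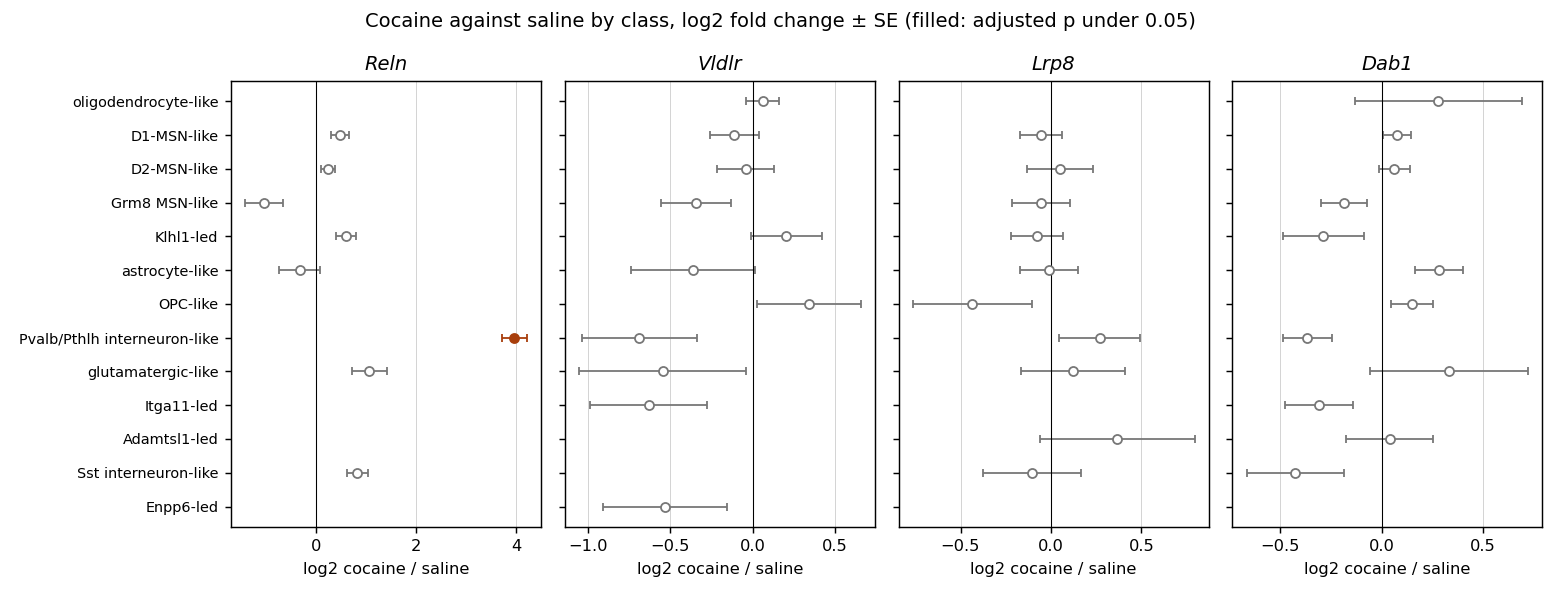
Log2 fold change of cocaine against saline for each member in each class where it was tested, with bars for the standard error of the edgeR fit and filled points for an adjusted p under 0.05; the horizontal axes differ between panels. Reln in Pvalb/Pthlh interneuron-like nuclei (3.96) is the filled point, and the other 40 pairs are open.

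In the called pair, Pvalb/Pthlh interneuron-like nuclei, Reln rested on 23, 317, 0 and 42 UMIs in 5, 24, 0 and 10 nuclei of 123, 149, 127 and 107. For the saline male library, 0 of 127 nuclei allows up to 2.36%. The difference was 3.96 ± 0.25 (log2, edgeR adjusted p = 7.17e-51). This fit took the spread from all genes together, so its SE and p-value do not measure the spread of Reln itself between libraries. Both cocaine libraries were above both saline libraries, yet 1 nucleus of the cocaine female library held 74 of the 317 UMIs. DESeq2 did not call it (5.40, DESeq2 adjusted p = 0.804), and it was not called without the saline male library (3.10, edgeR adjusted p = 0.618).

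Markers of other interneurons moved with this result. Nuclei of the class with a UMI of Sst, Npy, Vip, Lamp5, Ndnf or Htr3a numbered 12, 40, 13 and 26, and held 22, 253, 0 and 34 of the Reln UMIs. The summed level of 8 markers of neurogliaform and related interneurons was 198 and 260 CPM in the saline libraries and 310 and 423 CPM in the cocaine libraries, with 8 and 5 of them seen with saline and 8 and 8 with cocaine. That of 5 Sst interneuron markers was 200.1 and 179 CPM with saline (4 and 3 seen) and 261 and 245 CPM with cocaine (4 and 5 seen). Without the nuclei carrying any of the 6 genes, the Reln UMIs were 1, 64, 0 and 8 and the difference 6.14, which has almost no saline counts under it. The part of other interneurons in the result was not tested further.

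In the same class Dab1 (452, 351, 413 and 347 CPM) was lower in both cocaine libraries, by 0.37 ± 0.12 on the log2 scale, and did not pass (edgeR adjusted p = 0.0889). In oligodendrocyte-like nuclei Vldlr differed by 0.06 ± 0.10 (edgeR adjusted p = 0.907), and in astrocyte-like nuclei Lrp8 differed by -0.01 ± 0.16 (adjusted p = 0.993). Receptor levels thus gave no called difference in any class tested.

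The link between Reln and Nr4a3 was then examined nucleus by nucleus in D1-MSN-like nuclei, each thinned to 3000 UMIs so that all were read at 1 depth. Nr4a3-positive nuclei, those with at least 1 Nr4a3 UMI, were 40 of 814, 85 of 1334, 36 of 1335 and 70 of 1295. Reln UMIs were present in 42.5%, 70.59%, 41.67% and 64.29% of them, against 28.81%, 22.82%, 21.25% and 24.73% of Nr4a3-negative nuclei. The 95% exact binomial intervals of the positive shares were 27.04 to 59.11%, 59.71 to 79.98%, 25.51 to 59.24% and 51.93 to 75.39%, and cover counting error only. The share was higher in the positive nuclei of all 4 libraries, by a mean of 30.4 ± 16.0 percentage points (SD, n = 4; exact sign-flip permutation test over libraries, p = 0.12, the smallest that 4 libraries allow).

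By level, Nr4a3-positive nuclei had Reln at 858, 2039, 565 and 1924 CPM, and Nr4a3-negative nuclei at 230, 161, 141 and 210 CPM. With the library as a block this was a rise of 2.91 ± 0.20 on the log2 scale (edgeR adjusted p = 1.06e-13), in a comparison that called 7.79% of genes. The level was also graded by the number of Nr4a3 UMIs. In nuclei with 1 Nr4a3 UMI it was 480, 1065, 556 and 1271 CPM, and in nuclei with 2 or more it was 1489, 2755, 578 and 2474 CPM. Each step was upward in every library, though by little at the second step in the saline male library, where it rests on 26 Reln UMIs.

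Reln was the one member called in this comparison. Dab1 differed by 0.04 ± 0.14, Lrp8 by 0.32 ± 0.40 and Vldlr by -0.57 ± 0.71 (log2 ± SE; the lowest edgeR adjusted p was 0.727). In positive nuclei Vldlr rests on 0, 4, 1 and 0 UMIs and Lrp8 on 3, 9, 2 and 3, too few to see moderate differences.

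**Figure D4:**
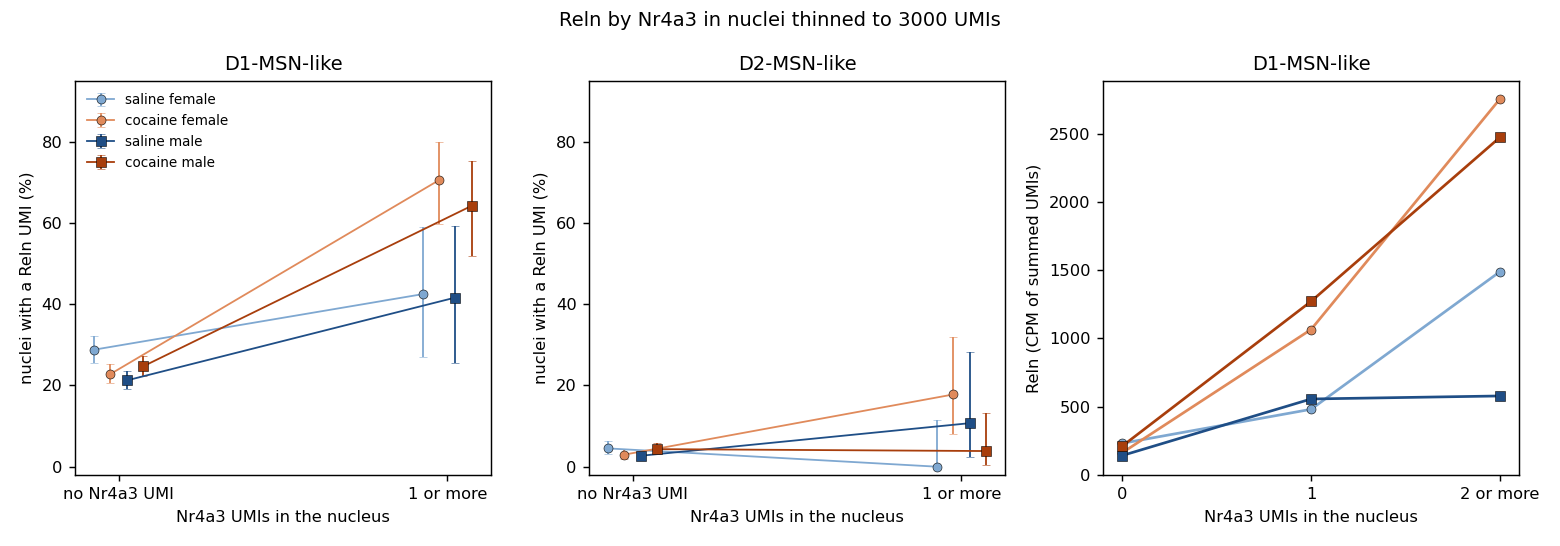
Share of nuclei with a Reln UMI in the D1-MSN-like class (left) and the D2-MSN-like class (middle), for nuclei without and with an Nr4a3 UMI, with 95% exact binomial intervals, and Reln level in D1-MSN-like nuclei by the number of Nr4a3 UMIs (right). Each line is 1 library, thinned to 3000 UMIs per nucleus. In D1-MSN-like nuclei all 4 lines rise, to 64.29% and 70.59% in the cocaine libraries and 41.67% and 42.5% in the saline libraries.

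Cocaine and saline libraries differed in how far Reln followed Nr4a3. The term for gate by treatment was 1.71 ± 0.18 on the log2 scale (edgeR adjusted p = 1.23e-17; 1.59% of genes called). In Nr4a3-positive nuclei alone, Reln rose with cocaine by 1.52 ± 0.16 (edgeR adjusted p = 3.7e-19; 3.95% called), and both cocaine libraries lay above both saline libraries. In Nr4a3-negative nuclei it differed by 0.00 ± 0.13 (edgeR adjusted p = 0.995; 0.111% called), with the groups overlapping. Leaving out each library in turn, in fits without the sex covariate, kept the rise in Nr4a3-positive nuclei between 1.29 and 1.87. Positive nuclei of the cocaine libraries also held more Nr4a3 each, 1306 and 1291 CPM against 600 and 639 CPM.

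The difference between treatments was not called once sub-cluster 5 was left out. Without its 161 nuclei Reln was still higher in Nr4a3-positive nuclei by 1.504 ± 0.139 (edgeR adjusted p = 2.49e-24; 3.18% of genes called), but the gate-by-treatment term was -0.05 ± 0.26 (adjusted p = 1.0; edgeR called 0% of genes, with 388 at an unadjusted p under 0.05). Positive nuclei then had 644, 565, 385 and 324 CPM, and negative nuclei 243, 149, 126 and 184 CPM. Sub-cluster 5 was itself led by Nr4a3, which was present in 91 of its nuclei after thinning, 6, 50, 6 and 29 by library. Reln was also among its leading genes. Leaving it out takes away nuclei high in both genes, mostly from the cocaine libraries. The term without it therefore cannot show where the difference lies.

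The rise was called in both D1 clusters, although cluster 6 had the lower level of Reln as a whole. It was 2.48 ± 0.24 in cluster 2 (edgeR adjusted p = 5.93e-13, 6.88% called) and 2.56 ± 0.32 in cluster 6 (edgeR adjusted p = 1.02e-12, 4.07% called). Cluster 2 held 146 of the 161 nuclei of sub-cluster 5. Its saline male library barely differed, at 246 CPM in positive nuclei, from 14 Reln UMIs, and 224 CPM in negative ones. Positive nuclei of cluster 6 held 3, 19, 6 and 27 Reln UMIs. Most nuclei of cluster 6 were of sub-cluster 1, low in Reln, but it also took in nuclei of Reln-rich sub-clusters 3 and 5. The part of this makeup in the rise within cluster 6 was not tested. Within sub-clusters the rise was called in sub-cluster 3, by 1.31 ± 0.23 (edgeR adjusted p = 7.83e-06, 0.592% called). It was not called in sub-cluster 0 (0.50 ± 0.24, adjusted p = 0.603; 0.263%), sub-cluster 2 (-0.14 ± 0.91, adjusted p = 0.989; 0.707%) or sub-cluster 5 (0.37 ± 0.34, adjusted p = 0.923; 0.482%). These sub-clusters held 25 to 91 positive nuclei over all libraries. No edgeR value is given for sub-cluster 1, which had 5, 11, 7 and 10 positive nuclei. Reln UMIs were present in 0%, 9.09%, 0% and 40% of them, against 5.13%, 5.57%, 7.41% and 10.08% of its negative nuclei. The share was thus higher in positive nuclei of 2 of 4 libraries, from 0, 5, 0 and 19 Reln UMIs.

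Cocaine against saline was also fitted within the 4 sub-clusters with at least 50 nuclei in every library. Reln differed by -0.06 ± 0.11 in sub-cluster 0 (edgeR adjusted p = 0.943; 0.0269% of genes called), by -0.13 ± 0.18 in sub-cluster 2 (0.902; 0.0375%) and by -0.09 ± 0.11 in sub-cluster 3 (0.904; 0.0409%). In sub-cluster 1 it was 0.74 ± 0.24 higher (adjusted p = 0.687), where edgeR called 0% of genes, 750 had an unadjusted p under 0.05 and DESeq2 called 1. Without the cocaine female library it was 1.18 and was called (edgeR adjusted p = 0.000175). Sub-clusters 0 and 3, both rich in Reln, thus gave no called change. Sub-cluster 5 had too few nuclei for this test.

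In D2-MSN-like nuclei the pattern depended on the thinning. At 3000 UMIs per nucleus, Reln UMIs were present in 0%, 17.78%, 10.71% and 3.85% of Nr4a3-positive nuclei and in 4.5%, 2.97%, 2.69% and 4.32% of negative ones, higher in 2 of 4 libraries. For the saline female library, 0 of 30 nuclei allows up to 10.0%. The mean difference was 4.46 ± 8.65 percentage points (SD, n = 4; exact sign-flip permutation p = 0.5). At 5000 UMIs the share was higher in positive nuclei of 3 of 4 libraries. Without thinning it was higher in 4 of 4, by a mean of 6.06 ± 2.87 points (exact sign-flip permutation p = 0.12, the smallest possible). Unthinned nuclei differ in depth, which bears on finding a UMI of either gene, and its part was not tested. The edgeR fit at 3000 UMIs gave 2.39 ± 0.36 on the log2 scale (adjusted p = 4.88e-09, 5.67% of genes called). The value rests on 0, 29, 3 and 6 Reln UMIs in positive nuclei, and without the cocaine female library it was 0.70 (edgeR adjusted p = 0.773). Here too the spread was taken from all genes together, not from Reln itself. The gate-by-treatment term was 2.72 ± 0.89 (edgeR adjusted p = 0.371; 0.168% called).

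Taken from the side of the ligand, D1-MSN-like nuclei with a Reln UMI (1224 after thinning to 3000 UMIs) were set against the 3554 without, in a comparison that called 11.5% of genes. Nr4a3 was at 48.6, 258, 38.9 and 204 CPM in Reln-positive nuclei and 21.5, 22.2, 11.2 and 20.4 CPM in Reln-negative ones, a rise of 2.98 ± 0.19 (log2, edgeR adjusted p = 6.12e-14). Its gate-by-treatment term was 1.97 ± 0.30 (edgeR adjusted p = 7.27e-06; 0.175% of genes called). As these are the same nuclei read from the other gene, this adds no independent evidence.

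Dab1 was lower by 0.22 ± 0.06 in Reln-positive nuclei on the log2 scale (edgeR adjusted p = 0.0157). Its values were 319, 300.5, 264 and 280 CPM with Reln, against 348, 374, 324 and 353 CPM without, lower in all 4 libraries. Sub-cluster 4, nearly empty of Reln, lies almost wholly on the side without it and had Dab1 at 535, 878, 809 and 966 CPM. The part of such makeup in the Dab1 gap was not tested. The gap is small, and it was not called without the cocaine female, saline male or cocaine male library (-0.21, -0.21 and -0.19, edgeR adjusted p = 0.133, 0.0616 and 0.148), nor with at least 2 Reln UMIs asked of a positive nucleus (-0.23, adjusted p = 0.0725). Vldlr was at 12.5, 6.8, 6.9 and 6.7 CPM with Reln and 11, 10.4, 17.2 and 14.4 CPM without (-0.70 ± 0.29, edgeR adjusted p = 0.124). Lrp8 differed by -0.04 ± 0.19 (adjusted p = 0.942).

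The genes that most clearly marked Reln-positive D1-MSN-like nuclei were Dach1, a transcription cofactor (888.5 against 282.2 CPM, 1.72 ± 0.06 log2), Grip1, a glutamate receptor anchoring protein (0.93 ± 0.05), the cation channel Trpm3, Schip1 and the kinase Mapk4. The clearest on the other side were the RNA-binding gene Ralyl (662.7 against 1693 CPM, -1.30 ± 0.05), Tafa2, the cadherin Pcdh15, the kinase Camk2d (-2.31 ± 0.14) and Fam155a. The largest edgeR adjusted p among these 10 was 5.87e-14, and all 10 kept 1 sign in the 4 libraries. Dach1 was also among the leading genes of sub-cluster 0.

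A list of 70 other genes of the pathway, in 9 roles, was read in the same fits. With cocaine, 2 rose and 2 fell in 727 tests over 14 classes, and the list's median fold change lay between -0.08 and 0.06 per class (log2), against -0.01 to 0.01 for all genes. In D1-MSN-like nuclei 0 of 61 tested members of the list were called by edgeR, where 0.0377% of all genes were. Both that rose were among 58 tested in Pvalb/Pthlh interneuron-like nuclei, where 2.37% of all genes were called. Those that fell were 1 of 57 in oligodendrocyte-like nuclei (0.393% of all genes) and 1 of 36 in the Adamtsl1-led cluster (0.755%). The 4 calls fell on 2 genes. Adamts3, a protease that cleaves reelin, fell in oligodendrocyte-like nuclei by 1.70 (47.4, 8.52, 23.2 and 16.1 CPM; edgeR adjusted p = 0.00216) and rose in Pvalb/Pthlh interneuron-like nuclei by 1.82 (11.7, 40.1, 15.2 and 60.0 CPM; 7.88e-06). Lrp1b, a receptor of the same family, rose by 0.58 in Pvalb/Pthlh interneuron-like nuclei (edgeR adjusted p = 1.66e-06) and fell by 3.07 in the Adamtsl1-led cluster (559, 62.7, 92.5 and 14.4 CPM; adjusted p = 0.000147). The markers of other interneurons that were higher with cocaine in Pvalb/Pthlh interneuron-like nuclei, given above, stand beside both calls there, and their part was not tested.

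In Nr4a3-positive D1-MSN-like nuclei 3 of 55 tested genes of the list rose and none fell: App, the amyloid precursor (0.71 ± 0.14), the small GTPase Rap1b (1.02 ± 0.31) and the NMDA receptor subunit Grin1 (0.57 ± 0.14). In Reln-positive nuclei 4 rose and 3 fell of 55. Those that rose were the adaptor Nck2 (0.49 ± 0.08), the kinase Gsk3b (0.25 ± 0.07), App (0.20 ± 0.05) and Grin1 (0.16 ± 0.05). The 3 that fell were the adhesion gene Cdh2 (-0.51 ± 0.08), the Src family kinase Yes1 (-0.53 ± 0.17) and the Rap1 exchange factor Rapgef1 (-0.26 ± 0.09). These counts stand beside 7.79% and 11.5% of all genes called in the same fits, and the list's medians were 0.01 and 0.03 against -0.07 and -0.01 for all genes (log2).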

How the data were processed

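The deposited files are matrices of raw UMI counts per gene and nucleus, 1 per library, written by Cell Ranger 6.1.2 per the file headers, and the build rn7 is named in the submitters' processing notes. Nuclei under 200 genes or above 5% mitochondrial counts were dropped, and the nuclei with the highest Scrublet scores were removed at 0.8% per 1000 nuclei (4.97% to 5.81% of a library). Counts were scaled to 10000, and 2000 variable genes without the 4 members gave 30 principal components, 15 neighbours and, by Leiden at resolution 0.5, 22 clusters (scanpy 1.11.5, leidenalg 0.10.2, Python 3.11.15). Leaving the members in gave 21. A cluster was named when its mean marker score was at least 2.0 (log2) and led the next class by 1.0, it had 50 nuclei or more and 3 markers each seen in 5% of its nuclei, its 10 leading genes held no more markers of another class than of its own, and it was not shallow with no marker leading. These limits were chosen with the data in view. By these rules 16 clusters were named, and 2840 nuclei were in unnamed clusters. Of 115 marker genes, 6 (Cldn5, Flt1, Foxj1, Pvalb, Slc18a3 and Trp73) had no row under that symbol in the feature lists. Pvalb therefore had no part in naming the Pvalb/Pthlh interneuron-like class. D1-MSN-like nuclei were clustered again at resolution 0.4 without the members and 45 immediate-early genes.

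Raw counts were summed per library and class, and tested with edgeR 4.0.16 in R 4.3.3 (quasi-likelihood test, TMM scaling, Benjamini-Hochberg adjustment over all genes of a fit), with sex as a covariate, where each library gave 25 nuclei or more of the class (50 for sub-clusters). Gates compared sums over thinned nuclei with the library as a block. For D2-MSN-like, astrocyte-like, oligodendrocyte precursor-like, Pvalb/Pthlh interneuron-like and Itga11-led nuclei, and for the D2-MSN-like Nr4a3 gate, edgeR gave a gene's own spread no weight. The cocaine fit and the Nr4a3 gate in D1-MSN-like nuclei were also run on simulated data in which all genes shared 1 spread. Such data cannot test how the fits treat a gene's own spread. With 1 library left out, a fit of cocaine against saline had no sex covariate and a single library in 1 treatment. Alternatives were DESeq2 1.42.0, no filter on low counts, no sex covariate, each library left out, more doublets removed, members left among the clustering genes, a per-nucleus marker gate, sub-clusters in equal shares, other thinning depths (5000 UMIs or none) and a gate of 2 UMIs. Fits within D1 clusters, without sub-cluster 5, within Nr4a3-positive or Nr4a3-negative nuclei, and without nuclei carrying other interneuron markers were added after seeing the data. The genes named are the 4 members, Nr4a3 as the gate, called genes of the pathway list, for Reln-positive nuclei the 5 genes on either side that had 1 sign in all 4 libraries and ranked first by adjusted p, and the 3 genes most like each member; Adamts3 and Lrp1b come from the pathway list. The members and the lists were chosen with earlier results of these data known. CPM values between genes are not compared, since the assay counts transcript ends.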

Additional observations from a re-analysis of the deposited data

Results flagged for a closer look

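The relation between Reln and Nr4a3 in D1-MSN-like nuclei differed between saline and cocaine libraries by a test of the difference itself. The rise of Reln in Nr4a3-positive nuclei was larger with cocaine by 1.71 on the log2 scale, and the rise of Nr4a3 in Reln-positive nuclei was larger by 1.97. Both values read the same nuclei, and the former was -0.05 without sub-cluster 5. That sub-cluster is itself led by Nr4a3 and rich in Reln, so its removal does not show where the difference lies.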

How the results depend on the processing

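Over 220 alternatives of all results, 185 kept the direction and the side of the threshold, 9 lost the call, 8 gained one, 11 changed sign and 7 moved a count or a share. The cause was not tested. For Reln in D1-MSN-like nuclei with cocaine, the difference was called with no filter on low counts (0.49), with sub-clusters in equal shares (0.31), and ranged from 0.037 to 0.953 on leaving out 1 library, called without the saline female library. A per-nucleus gate on D2 markers gave a call for Reln (0.52, edgeR adjusted p = 0.0027), in nuclei that were not all of the D2-MSN-like class. Reln in Pvalb/Pthlh interneuron-like nuclei was 5.40 and not called by DESeq2, and ranged from 2.40 to 10.32 on leaving out 1 library. The highest value, without the saline female library, has no saline counts and depends on the prior count. The number of member and class pairs called was 0 with DESeq2 and 3 with no filter (Reln in D1-MSN-like, Klhl1-led and Pvalb/Pthlh interneuron-like nuclei), and 1 to 2 on leaving out 1 library. Dab1 in D1-MSN-like nuclei was -0.10 with sub-clusters in equal shares. On leaving out 1 library, Vldlr in oligodendrocyte-like nuclei ranged from -0.016 to 0.128, Lrp8 in astrocyte-like nuclei from -0.14 to 0.14, and Reln in D1 sub-clusters 0 and 3 from -0.29 to 0.18 and from -0.43 to 0.29.

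For the Nr4a3 gate, Reln in D1-MSN-like nuclei was 0.50 within sub-cluster 0, 0.37 within sub-cluster 5 and -0.14 within sub-cluster 2, and 2.52 to 3.17 on leaving out 1 library. The D2-MSN-like value ranged from 0.70 to 2.82. The gate-by-treatment term was -0.048 without sub-cluster 5 and 1.43 to 1.99 on leaving out 1 library. In Nr4a3-negative nuclei the cocaine difference ranged from -0.36 to 0.37, and in Nr4a3-positive nuclei from 1.29 to 1.87. The difference in shares was 5.22, 5.62 and 3.67 points within sub-clusters 1, 2 and 5, and 24.6 to 35.9 on leaving out 1 library. Genes called for Reln-positive nuclei numbered 699 without the cocaine female library and up to 1134 without another. Over all alternatives, the number of genes called with cocaine ran from 0 to 176 in D1-MSN-like nuclei (5 as reported), 1 to 134 in D2-MSN-like (95), 4 to 219 in Pvalb/Pthlh interneuron-like (219), 1 to 143 in astrocyte-like (143) and 0 to 130 in oligodendrocyte-like nuclei (42). It ran from 284 to 1662 for the Nr4a3 gate in D1-MSN-like nuclei (748), 284 to 1177 in D2-MSN-like (507) and 21 to 164 for the gate by treatment (153). Thinning to 3000 UMIs leaves 4 or fewer Vldlr UMIs per library in Nr4a3-positive nuclei, which limits the receptors there. The labels give no replicate numbers; sex, a covariate of the class fits, pairs 1 saline with 1 cocaine library.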
